A study of Mus musculus with 20 samples.

Results

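The transcripts of 10 hypoxia response genes were followed in mouse brain: Hif1a, Epas1, Egln1, Egln3, Vegfa, Adm, Bnip3, Pdk1, Ankrd37 and Car9. They were taken from the deposited table by gene symbol, and each of the 10 symbols had 1 row among the 45700 genes. Several vascular genes, though not all, were lower in brains of mice with spinal muscular atrophy (SMA). The comparison asks whether these brains also carry a transcript response to low oxygen. Control brains came from heterozygous Smn-/+; SMN2tg/0 littermates. SMA brains came from "Taiwanese" Smn-/-; SMN2tg/0 mice, a severe model that lacks murine Smn in every cell and carries human SMN2. Both genotypes were untreated, shared an FVB background, and were taken at postnatal day 5 (P5, early-symptomatic; 2 libraries per genotype and fraction) and postnatal day 7 (P7, late-symptomatic; 3 libraries per genotype and fraction). Each stage and genotype has libraries of total cytoplasmic RNA (transcriptome) and of RNA from the polysomal fractions of a sucrose gradient (translatome), 20 in all. Levels are FPKM, read fragments divided by transcript length and library size, so genes of different length can be compared. Changes are differences of log2(FPKM + 0.1) with their standard error (SE). A gene passed when its unadjusted limma p was under 0.05, the threshold of the study, and the Benjamini-Hochberg adjusted p over all tested genes stands beside each change.

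Cells sense oxygen through prolyl hydroxylases of the Egln family, which mark the HIF alpha subunits for destruction by the Vhl ubiquitin ligase while oxygen is present. When oxygen falls, HIF-1α (Hif1a) and HIF-2α (Epas1) persist, pair with Arnt or its neuronal relative Arnt2, and switch on genes for angiogenesis, glycolysis and the removal of mitochondria. Because the alpha subunits are controlled mainly as proteins, the transcripts that report the response are the targets. These are Vegfa, the main endothelial growth factor, Adm, a vasodilator peptide, Bnip3, a mitophagy receptor, Pdk1, a kinase that holds back pyruvate oxidation, Ankrd37, an ankyrin repeat protein, Car9, a cell surface carbonic anhydrase, and the feedback hydroxylases Egln1 and Egln3. In the developing brain, neural cells release Vegfa and endothelial cells answer through its receptor Kdr.

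The core of a hypoxia response element is ACGTG, often written with a variant GCGTG, and both strands were searched for each in the RefSeq promoters (GRCm38.p6, 250 bases before to 50 after a transcription start). Promoters were found for 9 of the 10 genes. These 9 genes have 11 promoters in the table. The motif ACGTG was in 7 of the 11, beside 19.6% of the 32851 promoters of all genes, and GCGTG in 6 of the 11, beside 32.4%. Vegfa is in both numbers and Car9 in the first, and their matches before the start all overlap annotated exons. Those of Vegfa lie inside its annotated gene. The palindrome CACGTG holds ACGTG on both strands. The windows below show the bases around 1 match in each of 6 genes, upstream of the start and outside annotated exons. Hif1a has such matches too, and not every match is shown. The windows run 5′ to 3′ on the strand of the gene, with the motif, or its reverse complement, in capitals.
Bnip3 (chr7:138909591-138909631, 107 bases before the start): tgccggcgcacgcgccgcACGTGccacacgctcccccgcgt
Pdk1 (chr2:71873128-71873168, 78 bases before the start): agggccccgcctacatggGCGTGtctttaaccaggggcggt
Egln3 (chr12:54204081-54204121, 229 bases before the start): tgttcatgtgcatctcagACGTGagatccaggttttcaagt
Egln1 (chr8:124949358-124949398, 126 bases before the start): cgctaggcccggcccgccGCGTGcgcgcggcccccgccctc
Adm (chr7:110627585-110627625, 54 bases before the start): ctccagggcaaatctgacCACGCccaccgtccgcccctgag
Ankrd37 (chr8:46000069-46000100, 241 bases before the start): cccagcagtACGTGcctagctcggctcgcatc

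Some libraries stood apart before any gene was considered. In the early-symptomatic total libraries, a gene's deviation from its mean over those libraries followed transcript length, with a Spearman's rho over 15162 genes of 0.401 in SMA replicate 1, −0.0176 in SMA replicate 2, and −0.386 and −0.230 in the controls. In the early-symptomatic polysomal libraries rho was 0.235 and 0.290 in SMA and −0.233 and −0.185 in control. The late-symptomatic libraries lay between −0.118 and 0.153. A correction for length is among the alternatives, and its value is given where it altered an early call of a hypoxia response gene. Smn1, the deleted gene, was at 9.71 and 8.92 FPKM in controls against 9.55 and 10.1 FPKM in SMA brains in early-symptomatic total RNA, and at 13.6, 14.1 and 16.7 against 11.9, 12.7 and 17.5 FPKM late. The genotypes overlapped, and since the null allele removes only a part of the gene, a value over the whole gene does not check the genotype labels.

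The 10 genes spanned a wide range of levels. Bnip3 was highest, at 52.5 ± 9.78 FPKM over the 20 libraries (SD), followed by Hif1a (35.8 ± 3.58), Pdk1 (22.9 ± 5.64), Egln1 (20.3 ± 3.43), Vegfa (15.9 ± 3.25), Epas1 (6.42 ± 1.63), Ankrd37 (6.33 ± 1.76), Egln3 (3.46 ± 0.597), Adm (1.04 ± 0.293) and Car9 (0.214 ± 0.140). Pdk1 was above Egln1 in 13 of the 20 libraries and Epas1 above Ankrd37 in 12, so the order of these neighbours was not distinct. Bnip3 was above Hif1a in 19 libraries, and the other neighbours in the order were separated in all 20. Car9 lay below the mean of 1 FPKM that a gene needed to be tested, which left 9 of the 10 genes among 15247 tested genes.

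None of the hypoxia response genes passed as higher in SMA brains in any of the 4 comparisons of genotype. Of the 9 tested genes, 1 passed as lower, Bnip3 in the early-symptomatic translatome. The background at P5 was 4.36% of all tested genes higher and 3.89% lower in total RNA, and 5.65% higher and 6.82% lower on polysomes. At P7 it was 4.84% higher and 4.7% lower in total RNA, and 5.35% higher and 5.38% lower on polysomes. None of the 9 had an adjusted p under 0.05, which 0.164% of all genes reached at P5 in total RNA, 0.649% on polysomes, 0.111% at P7 in total RNA and 0.0918% on polysomes. The median log2 change of the 9 genes was −0.06 and 0.06 at P5 and −0.03 and −0.03 at P7, in total and polysomal RNA, beside 0.01, −0.01, 0 and 0 for all tested genes. For a gene that did not pass, these libraries do not exclude a change within the interval around its estimate, so not passing does not show that the gene was unchanged.

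**Figure D1:**
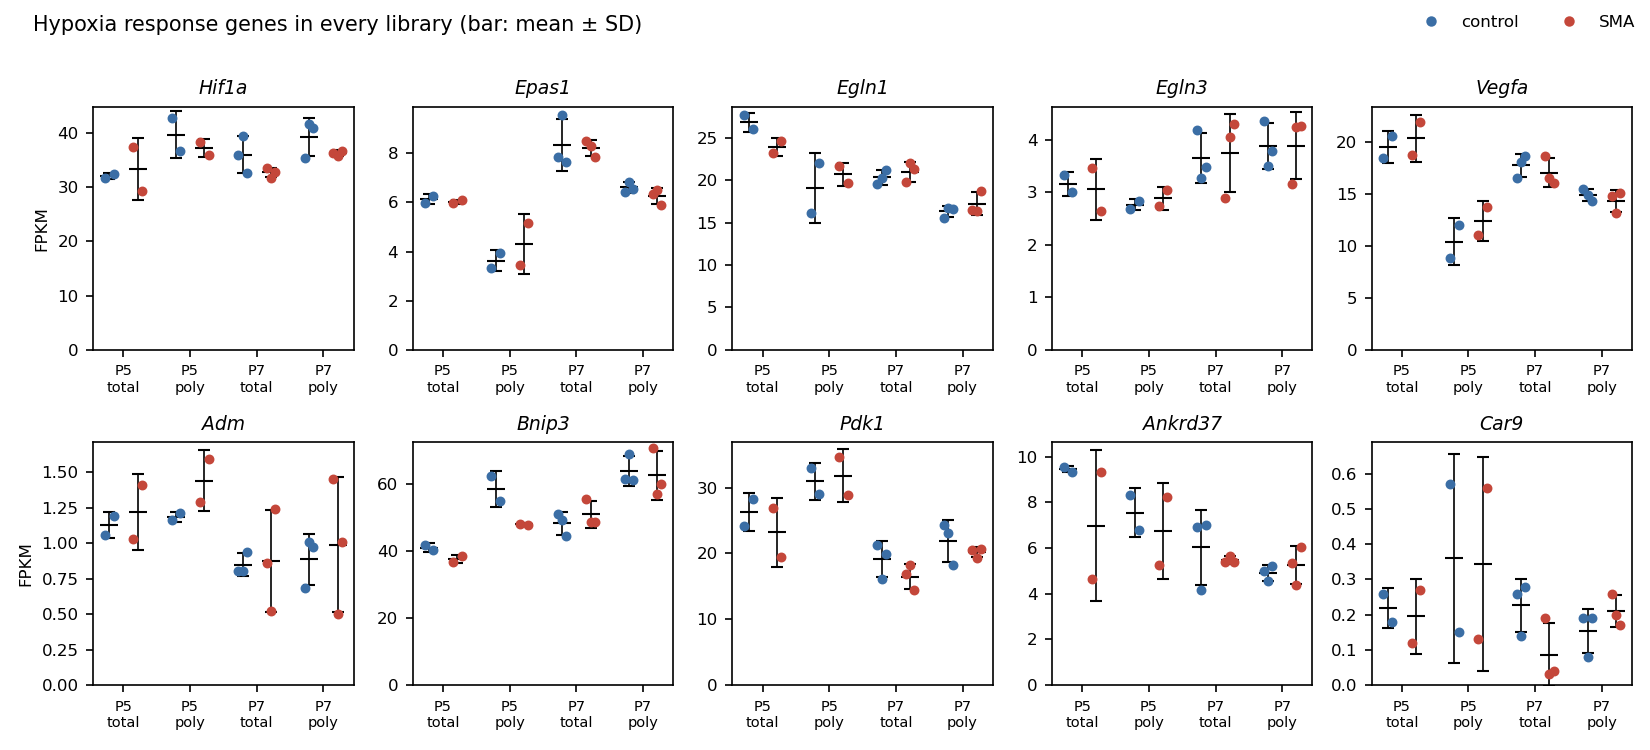
FPKM of the 10 genes (vertical axes, from 0) in every library, by stage and RNA fraction (horizontal axis; poly, polysomal), with control in blue, SMA in red and bars for the mean ± SD. The genotypes overlap in most panels, and the larger steps lie between fractions and stages, such as the low P5 polysomal values of Vegfa and the high P7 values of Epas1 in total RNA.

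Neither HIF alpha subunit showed a detectable genotype difference. Hif1a (ENSMUSG00000021109.11; GRCm38 chromosome 12, 73901375 to 73949785) was at 31.6 and 32.4 FPKM in controls against 37.4 and 29.3 FPKM in SMA brains in early-symptomatic total RNA, and at 42.7 and 36.6 against 38.4 and 36 FPKM on polysomes. Late-symptomatic values were 35.9, 39.4 and 32.6 against 33.5, 31.7 and 32.9 FPKM in total RNA, and 35.3, 41.6 and 40.9 against 36.3, 35.7 and 36.8 FPKM on polysomes. The genotypes overlapped in all 4 comparisons. The log2 change was −0.13 (SE 0.08, adjusted p = 0.628) in the late-symptomatic transcriptome and −0.11 (SE 0.07, adjusted p = 0.618) in the translatome, with 95% intervals of −20.1% to 4.13% and −18.2% to 4.79%. It passed in 3 of the settings that leave out a library, at 0.23 without early SMA replicate 2 in total RNA, −0.20 without late control replicate 3 in total RNA, and −0.19 without late control replicate 1 on polysomes. Other annotated genes overlap Hif1a, and the counting is not stated to use strand.

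Epas1 (ENSMUSG00000024140.9; chromosome 17, 86753907 to 86833410) was at 5.99 and 6.28 FPKM in controls against 5.96 and 6.09 FPKM in SMA brains in early-symptomatic total RNA, and at 3.32 and 3.94 against 3.45 and 5.16 FPKM on polysomes. Late-symptomatic values were 7.85, 9.56 and 7.63 against 8.49, 8.3 and 7.85 FPKM in total RNA, and 6.44, 6.85 and 6.53 against 6.36, 6.5 and 5.88 FPKM on polysomes. In total RNA the log2 changes were −0.03 (SE 0.11, adjusted p = 0.929) early and −0.02 (SE 0.11, adjusted p = 0.989) late. On polysomes they were 0.22 (SE 0.27, adjusted p = 0.694), with SMA replicate 2 the highest of the 4 early libraries, and −0.08 (SE 0.07, adjusted p = 0.709).

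The oxygen-sensing hydroxylases did not pass either. Egln1 (PHD2, the main HIF hydroxylase; ENSMUSG00000031987.5; chromosome 8, 124908596 to 124949254) was at 27.7 and 26 FPKM in controls against 23.2 and 24.7 FPKM in SMA brains in early-symptomatic total RNA, a log2 change of −0.16 (SE 0.07, adjusted p = 0.551). Both SMA values lay below both controls there, as the genotypes of 47.6% of all tested genes did not overlap with 2 libraries in each group. On early-symptomatic polysomes its values were 16.2 and 22 against 21.7 and 19.8 FPKM. Late-symptomatic Egln1 was at 19.6, 20.2 and 21.3 against 19.8, 22.1 and 21.3 FPKM in total RNA, and at 15.6, 16.8 and 16.7 against 16.5, 16.4 and 18.8 FPKM on polysomes. The late-symptomatic intervals were narrow, −6.82% to 14.3% in total RNA and −7.02% to 19.2% on polysomes.

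Egln3 (PHD3, a strongly hypoxia-inducible member of the family; ENSMUSG00000035105.5; chromosome 12, 54178981 to 54203860) was at 3.32 and 3 FPKM in controls against 3.47 and 2.65 FPKM in SMA brains in early-symptomatic total RNA, and at 2.69 and 2.84 against 2.73 and 3.04 FPKM on polysomes. Late-symptomatic values were 4.19, 3.28 and 3.49 against 2.9, 4.05 and 4.3 FPKM in total RNA, and 4.36, 3.5 and 3.79 against 3.16, 4.24 and 4.27 FPKM on polysomes. In both late-symptomatic fractions SMA replicate 1 was the lowest library, and SMA replicates 2 and 3 lay in the upper part of the range. The log2 changes were −0.06, 0.06, 0.02 and 0.00, with SEs of 0.19, 0.13, 0.19 and 0.16.

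Vegfa (ENSMUSG00000023951.14; chromosome 17, 46016993 to 46032377) was at 18.4 and 20.6 FPKM in controls against 18.7 and 22 FPKM in SMA brains in early-symptomatic total RNA, and at 8.8 and 12 against 11 and 13.7 FPKM on polysomes. Late-symptomatic values were 16.5, 18.1 and 18.6 against 18.6, 16.5 and 16 FPKM in total RNA, and 15.4, 14.9 and 14.3 against 14.8, 13.1 and 15.1 FPKM on polysomes. Control and SMA values were interleaved in every comparison. The log2 changes were 0.06 (SE 0.13, adjusted p = 0.841) and 0.26 (SE 0.23, adjusted p = 0.589) early, in total and polysomal RNA. Late changes were −0.06 (SE 0.08, adjusted p = 0.839) and −0.05 (SE 0.07, adjusted p = 0.806), with 95% intervals of −16.7% to 10.5% and −15% to 9.05%. The early-symptomatic interval on polysomes was much wider, −25.5% to 91.7%.

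Adm (ENSMUSG00000030790.12; chromosome 7, 110626281 to 110639358) was too weakly expressed for a close comparison. It was at 1.06 and 1.19 FPKM in controls against 1.03 and 1.41 FPKM in SMA brains in early-symptomatic total RNA, and at 1.16 and 1.21 against 1.29 and 1.59 FPKM on polysomes. Late-symptomatic values were 0.8, 0.8 and 0.94 against 0.86, 0.52 and 1.24 FPKM in total RNA, and 0.68, 1.01 and 0.97 against 1.45, 0.5 and 1.01 FPKM on polysomes. The SMA libraries lay above the controls in the early-symptomatic translatome (log2 change 0.25, SE 0.14, adjusted p = 0.465), where the genotypes of 50.5% of all tested genes do not overlap. Without SMA replicate 1 the change there was 0.40. Adm reached the mean of 1 FPKM needed for the test only with the SMA libraries counted, so its tests are given as a description. Its late-symptomatic interval on polysomes was −46.9% to 102%. An antisense transcript overlaps the gene.

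Bnip3 (ENSMUSG00000078566.6; chromosome 7, 138890836 to 138909519) was at 42 and 40.2 FPKM in controls against 36.9 and 38.5 FPKM in SMA brains in early-symptomatic total RNA, and at 62.5 and 54.9 against 48.2 and 47.8 FPKM on polysomes. The SMA libraries lay below both controls in each fraction, where the genotypes of 47.6% (total) and 50.5% (polysomal) of all tested genes do not overlap. The log2 change was −0.13 (SE 0.06, adjusted p = 0.551) in total RNA and −0.29 (SE 0.09, adjusted p = 0.393) on polysomes, where it passed, with a 95% interval of −32% to −1.14%. With the correction for transcript length the polysomal change was −0.15 and did not pass. It also did not pass, among other settings, without a filter on low values or without a variance trend (−0.29 in each), or without control replicate 1 (−0.19), SMA replicate 1 (−0.29) or SMA replicate 2 (−0.28). Late-symptomatic values were 51.1, 49.4 and 44.6 against 55.5, 48.8 and 48.6 FPKM in total RNA, and 61.6, 69.1 and 61.4 against 70.9, 57.1 and 60.1 FPKM on polysomes. There the genotypes overlapped in both fractions, with log2 changes of 0.08 (SE 0.08, adjusted p = 0.783) and −0.03 (SE 0.10, adjusted p = 0.936). A pseudogene and an antisense transcript overlap the locus on the other strand.

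Pdk1 (ENSMUSG00000006494.9; chromosome 2, 71873224 to 71903858) was at 24.2 and 28.3 FPKM in controls against 26.9 and 19.5 FPKM in SMA brains in early-symptomatic total RNA, and at 32.9 and 29 against 34.6 and 28.9 FPKM on polysomes. Late-symptomatic values were 21.3, 16.2 and 19.9 against 16.8, 18.2 and 14.4 FPKM in total RNA, and 24.3, 23.1 and 18.2 against 20.6, 19.3 and 20.7 FPKM on polysomes. The groups overlapped in every comparison, with late log2 changes of −0.21 (SE 0.14, adjusted p = 0.676) and −0.11 (SE 0.12, adjusted p = 0.771). It passed where the lowest late control was left out, at −0.33 without control replicate 2 in total RNA and −0.23 without control replicate 3 on polysomes.

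Ankrd37 (ENSMUSG00000050914.13; chromosome 8, locus 45975528 to 46029477 in the table, wider than the annotated gene at 45996902 to 46005707) differed between the early SMA replicates. It was at 9.55 and 9.35 FPKM in controls against 4.64 and 9.33 FPKM in SMA brains in early-symptomatic total RNA, and at 8.31 and 6.79 against 5.27 and 8.24 FPKM on polysomes. SMA replicate 1 was the lowest library in both fractions. The log2 change in total RNA was −0.51 (SE 0.40, adjusted p = 0.595) with both SMA libraries and −1.01, which passed, without SMA replicate 2. At 927 nt its longest transcript is the shortest of the tested set, and in total RNA the library with the low value is the one with the highest rho against length, while on polysomes SMA replicate 2, with the higher Ankrd37, has the higher rho of the SMA pair. The part of length in the low value itself was not tested. With the correction for length the change in total RNA with both SMA libraries was −0.29 and did not pass. Late-symptomatic values were 6.94, 4.14 and 7.03 against 5.38, 5.67 and 5.38 FPKM in total RNA, and 4.98, 4.55 and 5.23 against 5.34, 4.4 and 6.06 FPKM on polysomes. Here control replicate 2 was low in total RNA, and without it the change went from −0.10 to −0.35, which passed. The genes Lrp2bp and Ufsp2 lie on the other strand of this locus, and how their reads were split is not stated.

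Car9 (ENSMUSG00000028463.12; chromosome 4, 43504428 to 43513729), a strongly HIF-induced gene in other tissues, was close to 0. It was at 0.26 and 0.18 FPKM in controls against 0.12 and 0.27 FPKM in SMA brains in early-symptomatic total RNA, and at 0.57 and 0.15 against 0.13 and 0.56 FPKM on polysomes. Late-symptomatic values were 0.26, 0.14 and 0.28 against 0.19, 0.03 and 0.04 FPKM in total RNA, and 0.19, 0.08 and 0.19 against 0.26, 0.2 and 0.17 FPKM on polysomes. The genotypes overlapped in all 4 comparisons.

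**Figure D2:**
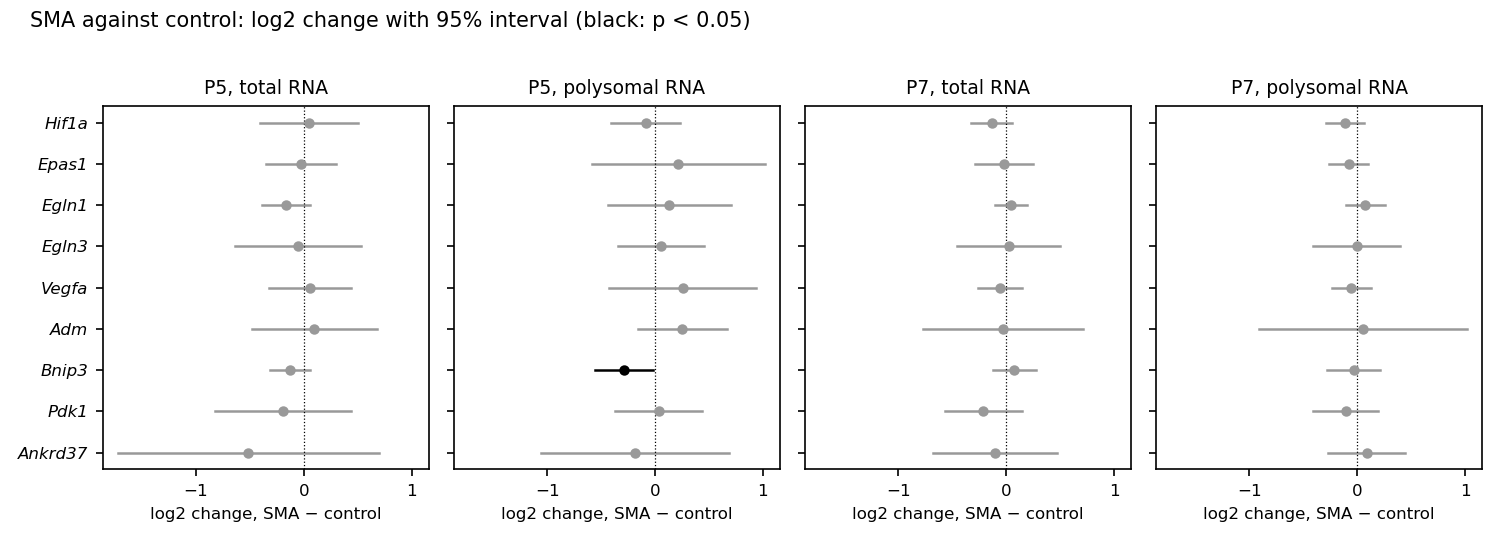
Log2 change of SMA over control (horizontal axis) for the 9 tested genes in the 4 stage and fraction comparisons, with 95% intervals, black where the unadjusted limma p was under 0.05. Bnip3 in the P5 polysomal libraries (−0.29) is the black point.

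No tested gene passed for a change in translation efficiency (TE), the polysomal level relative to total RNA. The log2 change in TE lay between −0.16 (SE 0.11, adjusted p = 1) for Bnip3 and 0.33 (SE 0.53, adjusted p = 1) for Ankrd37 at the early-symptomatic stage, and between −0.11 and 0.19 for the same genes late. Without early control replicate 2 the TE change of Egln1 went from 0.30 to 0.56 and passed. Of all tested genes, 1.26% passed with higher and 1.06% with lower TE early, and 1.09% and 0.977% late. Nor did the genotype effect of any of the 9 pass a test of difference between stages with all libraries. Of all tested genes, 4.55% and 5.6% passed with a higher and a lower effect late in total RNA, and 6.81% and 6.86% on polysomes. Egln1 in total RNA, with a late minus early effect of 0.21 (SE 0.09, adjusted p = 0.486), came nearest. It passed without a filter on low values (0.21), with equal medians (0.26), and without early SMA replicate 2 (0.25), late control replicate 3 (0.24) or late SMA replicate 1 (0.25). Without early SMA replicate 2, Hif1a (−0.36) and Ankrd37 (0.91) also passed in total RNA. On polysomes Vegfa passed without early control replicate 2 (−0.53) and Epas1 without early SMA replicate 1 (−0.58).

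In the rest of the pathway a few genes passed, in either direction. Of all tested genes, 4.36% were higher and 3.89% lower in the P5 transcriptome, and 5.65% and 6.82% in the P5 translatome. At P7 the shares were 4.84% and 4.7% in the transcriptome, and 5.35% and 5.38% in the translatome. In a list of 14 or 24 genes, 1 gene is close to such a share. Of 14 tested regulators of HIF, 3 were higher and 0 lower in the P5 transcriptome, 1 and 0 in the P5 translatome, 2 and 0 in the P7 transcriptome, and 2 and 1 in the P7 translatome. The medians of the list were 0.06, 0.10, 0.06 and 0.02. Hif3a, which encodes a HIF alpha subunit with isoforms that oppose the other alpha subunits, was below 1 FPKM in all 10 control libraries. It reached the mean of 1 FPKM needed for the test only through the SMA libraries, so its tests and its place in the numbers above (all but the P5 translatome) are given as a description. It was at 0.65 and 0.38 FPKM in controls against 2.1 and 2.05 FPKM in SMA brains in early-symptomatic total RNA, and at 0.24 and 0.23 against 0.58 and 2.01 FPKM on polysomes. Late-symptomatic values were 0.92, 0.92 and 0.84 against 1.31, 2.02 and 1.23 FPKM in total RNA, and 0.71, 0.48 and 0.39 against 1.32, 1.2 and 1.88 FPKM on polysomes. Every SMA library was above every control of its stage and fraction. At P7 the genotypes of 15% of all tested genes did not overlap in total RNA, and of 16.1% on polysomes.

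The log2 change of Hif3a was 1.86 (SE 0.26, adjusted p = 0.551) in the early-symptomatic transcriptome and 1.84 (SE 0.63, adjusted p = 0.401), which did not pass, in the translatome. Late it was 0.67 (SE 0.19, adjusted p = 0.408), which did not pass without control replicate 3, and 1.33 (SE 0.25, adjusted p = 0.234). With the correction for length the early-symptomatic changes were 1.69 and 1.71. As a description only, the late minus early difference in total RNA was −1.18 (SE 0.35, adjusted p = 0.486). A transcript on the other strand overlaps the gene.

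Arnt2, the neuronal partner of the HIF alpha subunits, passed as higher in all 4 comparisons, with log2 changes of 0.39 (SE 0.07, adjusted p = 0.551) and 0.48 (SE 0.12, adjusted p = 0.386) early and 0.17 (SE 0.05, adjusted p = 0.424) and 0.21 (SE 0.06, adjusted p = 0.365) late. Its P5 calls were lost without control replicate 1 or 2, and on polysomes also without SMA replicate 2. Its P7 calls were lost without control replicate 2, SMA replicate 2 or SMA replicate 3, and on polysomes also without control replicate 3. Arnt, its widely expressed relative, was lower in the late-symptomatic translatome, at 8.15, 7.38 and 7.05 FPKM in controls against 4.88, 5.37 and 4.46 FPKM in SMA brains (log2 change −0.61, SE 0.10, adjusted p = 0.202). In the early-symptomatic translatome Arnt was at 5.73 and 7.68 against 9.17 and 10.8 FPKM (log2 change 0.58, SE 0.21, adjusted p = 0.404), which did not pass. The effect on polysomes differed between the stages by −1.18 (SE 0.21, adjusted p = 0.0991). The histone acetyltransferase gene Crebbp, named after its value was seen, was the third regulator higher in the early-symptomatic transcriptome (0.27, SE 0.09, adjusted p = 0.551). The abundant Hsp90ab1, a chaperone of HIF-1α, and Tceb1 and Tceb2, the elongins of the Vhl ligase, did not pass in any of the 4 comparisons of genotype, but the effect on Tceb2 passed as different between the stages, by 0.65 in total RNA and 0.25 on polysomes.

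Beside the same shares of all tested genes, 0 of 24 other tested HIF targets were higher and 1 lower in the P5 transcriptome. The numbers were 1 and 2 in the P5 translatome, 1 and 5 in the P7 transcriptome, and 0 and 4 in the P7 translatome. The medians of these targets were 0.01, −0.06, −0.01 and −0.02. Apln and Angpt2, which hypoxia can induce, were counted with the VEGF and related systems below and not here. P4ha1, a collagen prolyl hydroxylase, fell at P7 from 10, 10.3 and 8.88 to 7.55, 8.18 and 7.91 FPKM in total RNA (log2 change −0.30, SE 0.08, adjusted p = 0.365), and from 11.1, 10.9 and 10.2 to 8.21, 7.99 and 8.65 FPKM on polysomes (−0.37, SE 0.06, adjusted p = 0.202). Ldha, lactate dehydrogenase A and the most abundant of the list, fell in the same fractions, with log2 changes of −0.21 (SE 0.06, adjusted p = 0.422) and −0.17 (SE 0.06, adjusted p = 0.431), the first lost without control replicate 1 or 3 and the second without control replicate 2 or any SMA replicate. Ak4, a mitochondrial adenylate kinase, fell on polysomes at both stages, with −0.45 (SE 0.12, adjusted p = 0.386), lost without control replicate 2, SMA replicate 1 or SMA replicate 2, and −0.37 (SE 0.08, adjusted p = 0.265).

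The target of this list that rose in the late-symptomatic transcriptome was Bnip3l, a mitophagy receptor related to Bnip3. It went from 78.5, 82.3 and 87.1 to 96.7, 97.9 and 94.6 FPKM (log2 change 0.22, SE 0.04, adjusted p = 0.298). On polysomes its late change was 0.17 (SE 0.11, adjusted p = 0.619) and did not pass. The other targets counted above, named after their values were seen, were the lysyl oxidase gene Lox (lower in both P7 fractions), the phosphofructokinase gene Pfkl (lower in total RNA at both stages), the lactate exporter gene Slc16a3 (lower in P7 total RNA), and Higd1a (lower) and P4ha2 (higher) in the P5 translatome. Pgk1, a glycolytic kinase, had log2 changes of −0.11, −0.40, −0.01 and −0.07, none of which passed. Slc2a1, the glucose transporter of the blood-brain barrier and a classic HIF target, also named after its values were seen, had 0.25, 0.16, 0.10 and 0.12, none of which passed. Epo, the hormone gene of the kidney response, was listed at 0 in 17 of the 20 libraries and at no more than 0.05 FPKM in the other 3.

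**Figure D3:**
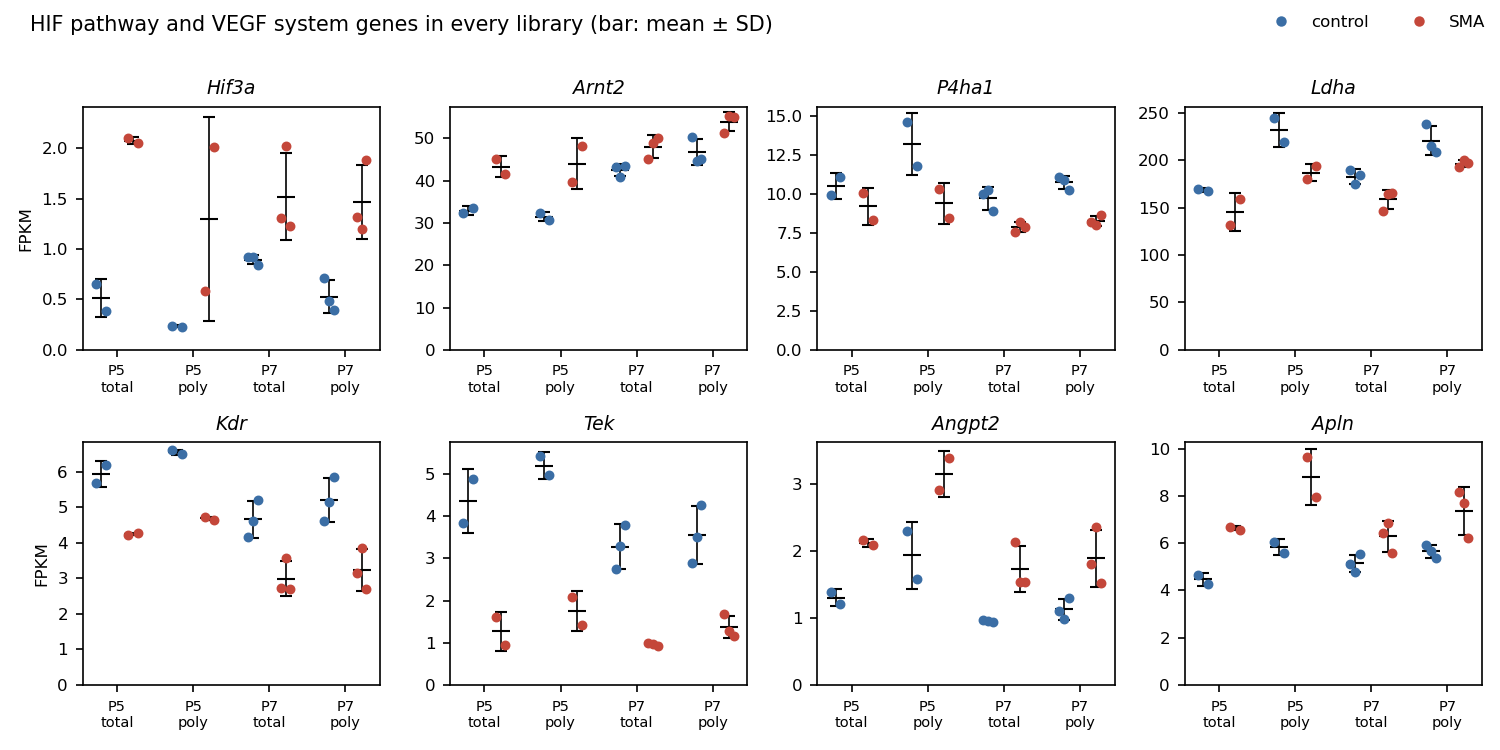
FPKM (vertical axes, from 0) of 4 genes of the HIF pathway (top) and 4 of the VEGF and angiopoietin system (bottom) in every library, by stage and RNA fraction (poly, polysomal), with control in blue, SMA in red and bars for the mean ± SD. All SMA points of Hif3a and Apln lie above the controls of their stage and fraction, and those of Kdr and Tek lie below.

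Vegfa did not pass, but several genes for its receptors or for other vascular signals did. Of 16 tested genes of the VEGF, angiopoietin, apelin and adrenomedullin systems, 4 were higher and 5 lower in the P5 transcriptome, 2 and 4 in the P5 translatome, 4 and 5 in the P7 transcriptome, and 2 and 5 in the P7 translatome. The medians of the list were −0.25, −0.22, −0.01 and −0.01. Kdr, the main VEGF receptor of endothelial cells, was at 5.67 and 6.19 FPKM in controls against 4.23 and 4.27 FPKM in SMA brains in early-symptomatic total RNA, and at 4.16, 4.61 and 5.21 against 2.73, 3.56 and 2.69 FPKM late. It passed as lower in all 4 comparisons, with log2 changes of −0.47 (SE 0.12, adjusted p = 0.551) and −0.63 (SE 0.15, adjusted p = 0.333) in total RNA and −0.47 and −0.68 on polysomes. At P5 it did not pass in either fraction when any 1 library was left out. Flt1, the decoy VEGF receptor, had −0.40, −0.32, −0.50 and −0.55, and the second of these did not pass. The others were each lost when 1 of several libraries was left out, controls 2 and 3 among them at P7 and both controls at P5. Kdr, Flt1, Apln, Ramp1, Pgf and Vegfc are named after their values were seen.

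Tek, the angiopoietin receptor, fell from 2.74, 3.3 and 3.8 to 1, 0.97 and 0.93 FPKM in late-symptomatic total RNA (log2 change −1.65, SE 0.13, adjusted p = 0.0404), and its other changes, −1.74, −1.54 and −1.31, passed as well. Aplnr, the apelin receptor, fell from 10.4 and 11.9 to 1.87 and 1.93 FPKM in early-symptomatic total RNA (log2 change −2.49, SE 0.13, adjusted p = 0.104), and passed with −2.39, −1.84 and −1.61 elsewhere. The ligands Angpt2 and Apln, which endothelial tip cells express and hypoxia can induce, went the other way. Angpt2 was at 0.97, 0.95 and 0.94 FPKM in controls against 2.13, 1.54 and 1.53 FPKM in SMA brains in late-symptomatic total RNA (log2 change 0.78, SE 0.14, adjusted p = 0.254), with 0.67 and 0.68, which passed, and 0.69, which did not. Apln rose in all 4, with 0.56, 0.58, 0.28 and 0.37, and each call was lost without control replicate 2, among other libraries. Ramp2, a subunit of the adrenomedullin receptor, passed as lower with −0.64 and −0.31, and Ramp1 was lower in the P5 translatome. The co-receptor Nrp2 was higher in 3 comparisons and Nrp1 in 1, and in the P7 transcriptome the VEGF relative Pgf was higher and Vegfc lower.

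The vessel markers that passed were mostly lower in SMA brains in the same libraries. Of 18 tested endothelial markers 9, 8, 10 and 10 were lower in the P5 transcriptome and translatome and their P7 counterparts, and 1, 1, 2 and 2 higher, with medians of −0.52, −0.49, −0.41 and −0.44. Of 11 tested mural cell markers 4, 5, 8 and 9 were lower and none higher, with medians of −0.31, −0.42, −0.50 and −0.50. At P5 these numbers moved with the libraries used. The lower endothelial markers numbered 3 without control replicate 1 or 2 in total RNA and without control replicate 1 or SMA replicate 2 on polysomes, and the lower mural markers to 1 without control replicate 1 in total RNA and without SMA replicate 2 on polysomes. The summed FPKM of the endothelial list in total RNA was 172 and 165 in control against 104 and 96.3 in SMA at P5, and 121, 132 and 145 against 113, 112 and 107 at P7. The mural list summed to 96.3 and 98.3 against 65.8 and 62.6 at P5 and to 93.4, 93.6 and 102 against 50.2, 64.5 and 58.2 at P7. The SMA sums lay below every control sum. On polysomes the endothelial sums were 245 and 184 against 123 and 107 at P5 and 154, 147 and 165 against 127, 122 and 112 at P7, and the mural sums 125 and 117 against 79.5 and 73.4, and 114, 112 and 122 against 64.2, 72 and 65.3. The 10 hypoxia response genes summed to 164 and 168 against 158 and 154 at P5 and to 165, 161 and 156 against 162, 156 and 152 at P7 in total RNA. On polysomes they summed to 179 and 169 against 167 and 165, and to 169, 181 and 168 against 176, 158 and 169. Bnip3 gave 31.8% of the sum, and the order of the genotypes at P5 on polysomes turned without it. Without Bnip3, left out after its values were seen, the P5 sums of the other 9 were 122 and 127 in controls against 121 and 115 in SMA in total RNA, and 117 and 114 against 119 and 117 on polysomes, where SMA was then the higher. The P7 sums without it were 113, 112 and 112 against 107, 107 and 103 in total RNA, with SMA the lower, and 107, 112 and 107 against 105, 100 and 109 on polysomes. No marker of either list was at 0 in all libraries. In bulk brain, fewer cells of a type and less RNA per cell cannot be told apart.

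Cldn5, a tight junction protein and the most abundant endothelial marker, fell in all 4 comparisons, with log2 changes of −1.36, −1.62, −1.03 and −1.01. Slc38a5, an amino acid transporter of brain endothelium, fell in all 4 with −1.94, −2.21, −1.67 and −2.02. Egfl7, which endothelial cells secrete, fell in 3, and Mfsd2a, a lipid transporter of the barrier, was higher in the late-symptomatic translatome (0.29, SE 0.07, adjusted p = 0.283), while Ly6c1, named after its value was seen, was higher in the P7 transcriptome. Ly6a, an endothelial surface antigen, was higher in all 4 with 0.42, 1.09, 1.69 and 1.16. Among mural markers the pericyte genes Rgs5 and Higd1b fell in all 4, with late changes in total RNA of −1.23 (SE 0.09, adjusted p = 0.0258) and −1.10 (SE 0.07, adjusted p = 0.0189). Vtn fell in all 4 comparisons, Myl9 in 3 and Abcc9 in the late-symptomatic pair.

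**Figure D4:**
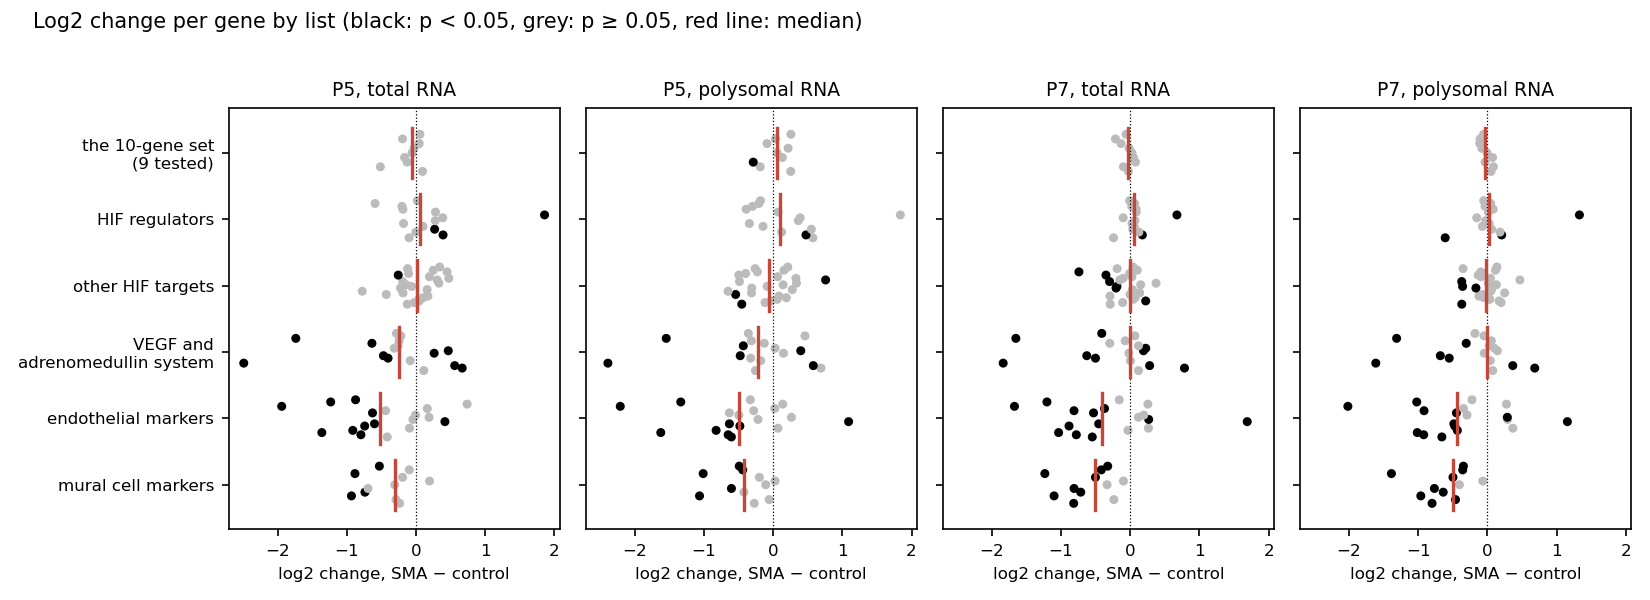
Log2 change of SMA over control (horizontal axis) for each tested gene of 6 lists in the 4 comparisons, black where the unadjusted limma p was under 0.05, with a red line at the list's median. The medians of the hypoxia response genes lie between −0.06 and 0.06, and those of the endothelial and mural markers between −0.52 and −0.31.

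Markers of other cells also moved, and their part in the results above was not tested. Of 9 astrocyte markers 4, 1, 3 and 3 were higher and none lower in the 4 comparisons. In total RNA the summed FPKM of that list was 415 and 490 in control against 580 and 595 in SMA at P5. At P7 it was 515, 578 and 525 against 784, 679 and 613. On polysomes the genotypes overlapped at P5, with 645 and 587 against 631 and 738. At P7 the polysomal sums of the list were 715, 674 and 614 against 961, 884 and 762. Aldoc, its most abundant gene, rose in the late-symptomatic transcriptome with 0.77 (SE 0.10, adjusted p = 0.132). Fgfr3 and Gjb6 were higher in 3 and 4 comparisons, and of the glutamate transporter genes Slc1a2 was higher in the P5 transcriptome (0.66) and Slc1a3 passed in none. Of 4 tested choroid plexus markers 0, 0, 3 and 3 were higher and none lower, with Ttr, which gave 97.2% of the list's sum, at 0.88 (SE 0.10, adjusted p = 0.119) and 0.91 (SE 0.15, adjusted p = 0.192) late, and Folr1 and Clic6 with it. Of 7 microglial markers 0, 0, 3 and 2 were higher and 1, 1, 1 and 0 lower. The complement genes C1qa and C1qb were higher in both P7 fractions, Aif1 in P7 total RNA, and P2ry12 was lower in the other 3 comparisons than the P7 translatome.

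Of 9 neuronal markers 1, 1, 2 and 0 were higher and none lower, with Map2 in the transcriptome of both stages and Slc17a6 in that of P7. The marker higher in the P5 translatome was Tubb3, a call that rests on its being listed at 0 in both control libraries there, so no fold is given for it, and Stmn2, the most abundant, did not pass. Of 8 oligodendrocyte lineage markers Pdgfra was higher in the P5 transcriptome and Olig2 lower in the P5 translatome, while Mbp, Cnp and Mag did not pass. Of 6 tested erythroid markers none was higher, and Hba-a2 was lower in the P5 transcriptome and Hbb-bt in the P7 translatome. Near-identical globin copies can share reads, and Hba-a1, Hbb-bs and Slc4a1 did not pass. Of 11 reference genes B2m was lower in 3 comparisons and Hprt higher in the P7 transcriptome, and Actb, Ppia, Ywhaz and Tbp did not pass.

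Between the fractions, some hypoxia response genes were higher on polysomes, and others were lower. Polysomal RNA was compared with total RNA over both genotypes of a stage. At P5, 2 of the 9 genes passed as higher on polysomes and 3 as lower, against 18.7% and 17.2% of all tested genes. At P7, 3 were higher and 3 lower, against 25.5% and 15.5%. At an adjusted p under 0.05, 1 was higher and 2 lower at P5 and 1 higher and 3 lower at P7, where 13.4% and 30% of all genes passed in either direction. Bnip3 was higher on polysomes, with log2 differences of 0.43 (SE 0.06, adjusted p = 0.0152) at P5 and 0.35 (SE 0.07, adjusted p = 0.00421) at P7. Pdk1 was higher with 0.35 (SE 0.13, adjusted p = 0.129) and 0.24 (SE 0.10, adjusted p = 0.0866). Its P5 call was lost without a filter on low values, or without control replicate 1, control replicate 2 or SMA replicate 2, and its P7 call without control replicate 2, SMA replicate 1 or SMA replicate 3. Vegfa was lower on polysomes, with −0.82 (SE 0.14, adjusted p = 0.0262) and −0.25 (SE 0.05, adjusted p = 0.00789). In control brains the polysomal mean of Vegfa was 0.533 times the total mean at P5 and 0.838 times at P7, and in SMA brains 0.608 and 0.841 times.

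Epas1 was lower on polysomes as well, with −0.62 (SE 0.14, adjusted p = 0.0489) at P5 and −0.36 (SE 0.06, adjusted p = 0.00229) at P7, and Egln1 with −0.36 (SE 0.11, adjusted p = 0.0823) and −0.30 (SE 0.05, adjusted p = 0.00137). Hif1a was higher on polysomes at P7 (0.14, SE 0.05, adjusted p = 0.0814) and had 0.23 (SE 0.10, adjusted p = 0.156) at P5, which did not pass. Its P5 difference passed with the correction for length (0.26), with equal medians (0.29), with 1 model over all libraries (0.23) and without SMA replicate 1 (0.30). Its P7 difference did not pass with the correction for length (0.11), with 1 model over all libraries (0.14), or without control replicate 3 or any 1 SMA replicate. Without early-symptomatic control replicate 1, the P5 differences of Egln1 (−0.23), Pdk1 (0.25) and Epas1 (−0.58) did not pass, nor did that of Egln1 without SMA replicate 1 or 2. Adm, Egln3 and Ankrd37 passed at neither stage with all libraries, and Ankrd37 passed as lower on polysomes at P7 (−0.26 in place of −0.16) without control replicate 2.

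From P5 to P7, over both genotypes, some of the genes were higher and others lower. In total RNA 2 of the 9 passed as higher at P7 and 3 as lower, against 23.7% and 27.1% of all tested genes, and on polysomes 4 were higher and 3 lower, against 26.8% and 29.7%. At an adjusted p under 0.05, 2 and 2 passed in total RNA and 4 and 2 on polysomes, where 41.7% and 49.3% of all genes did in either direction. The stages differ in age, and any difference in handling between them cannot be told apart from it. Epas1 was higher at P7, with log2 differences of 0.44 (SE 0.07, adjusted p = 0.00318) in total RNA and 0.70 (SE 0.12, adjusted p = 0.00264) on polysomes, and so was Bnip3, with 0.33 (SE 0.06, adjusted p = 0.00353) and 0.25 (SE 0.07, adjusted p = 0.0260). Pdk1 was lower at P7, with −0.47 (SE 0.13, adjusted p = 0.0224) and −0.58 (SE 0.10, adjusted p = 0.00279), and Egln1 with −0.29 (SE 0.05, adjusted p = 0.00275) and −0.24 (SE 0.09, adjusted p = 0.0683). The polysomal call of Egln1 was lost with the length correction (−0.21) and when 1 of several libraries, such as any late control, was left out.

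Vegfa had a stage difference of −0.19 (SE 0.07, adjusted p = 0.0670) in total RNA and 0.37 (SE 0.10, adjusted p = 0.0217) on polysomes, and the contrast between these was not itself tested. In total RNA it did not pass with libraries set to equal medians (−0.15), with the correction for length (−0.14), with 1 model over all libraries (−0.19), or when 1 of several libraries, such as early replicate 2 of either genotype, was left out. Egln3 was higher at P7 on polysomes (0.44, SE 0.11, adjusted p = 0.0141) and had 0.24 (SE 0.14, adjusted p = 0.218) in total RNA, which did not pass. Ankrd37 was lower on polysomes (−0.47, SE 0.15, adjusted p = 0.0358), a call lost without early control replicate 1 or early SMA replicate 2. In total RNA it had −0.47 (SE 0.22, adjusted p = 0.130), which did not pass, but did with 1 model over all libraries (−0.47), with the length correction (−0.57) and without early SMA replicate 1 (−0.72). Neither Adm (−0.43 and −0.50) nor Hif1a (0.07 and −0.02) passed in either fraction with all libraries.

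**Figure D5:**
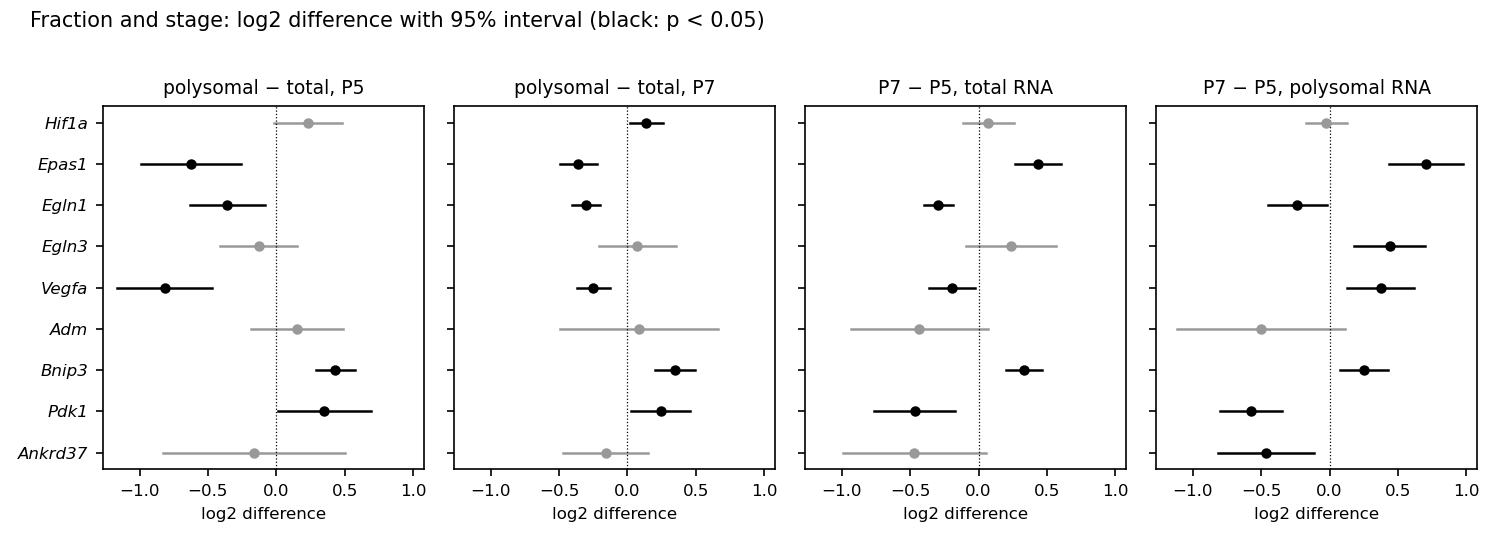
Log2 difference (horizontal axis) of polysomal from total RNA at P5 and P7, and of P7 from P5 in each fraction, over both genotypes, for the 9 tested genes with 95% intervals, black where the unadjusted limma p was under 0.05. Bnip3 lies above 0 and Egln1 below 0 in every panel, and between stages Vegfa is below 0 in total RNA and above 0 on polysomes.

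Genes among the 3 whose log2 levels followed each tested gene most closely over the 20 libraries are given with Pearson's r as a description, since libraries of a stage and fraction share much else. For Epas1 they were Naf1, Plagl2 and Ccnk (0.974, 0.968 and 0.966), for Bnip3 Atp6ap2, Prdx1 and Rnf14 (0.956, 0.952 and 0.942), and for Pdk1 Man1a2, Fxr2 and Kdm1a (0.945, 0.905 and 0.905). For Egln1 they were Rps16, Gm13340 and Gna12 (0.938, 0.919 and 0.918), for Vegfa Rere, Slc25a37 and Eif4ebp2 (0.904, 0.897 and 0.888), and for Egln3 Pcdhga12 and Ntsr1 (0.886 and 0.885). For Hif1a they were Aasdhppt and Ccdc132 (0.862 and 0.848), for Ankrd37 Ift20, D8Ertd738e and Rp9 (0.868, 0.852 and 0.845), and for Adm Brd7, Slu7 and 4930480K23Rik (0.774, 0.733 and 0.723). No hypoxia response gene was among the 3 closest of another.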

How the data were processed

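Total cytoplasmic and polysomal RNA libraries (TruSeq Stranded Total RNA, 100 bp reads) came from brains of control and SMA mice. Per the labels and the study's methods, the authors aligned reads with TopHat2 2.0.14 to GRCm38.p4 with Gencode M6 and computed the deposited FPKM with Cufflinks 2.2.1 at default settings. FPKM holds no counts, so the reads behind a value are unknown and no counting interval or detection floor is given. Groups were taken from the sample labels; nothing states that libraries of a group came from separate mice, so p-values measure only the spread between these libraries. Loci in the table count starts from 0 (60.7% of starts plus 1 equal Gencode M21 starts, 0.514% do so as written), so 1 was added.

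With R 4.3.3 and limma 3.58.1 (lmFit, eBayes with trend), log2(FPKM + 0.1) was fitted for the 15247 of 45700 genes whose mean reached 1 FPKM, called at an unadjusted p under 0.05 as in the study, with Benjamini-Hochberg adjustment over all tested genes. Intervals are 95%. SMA was compared with control per stage and fraction, TE and stage differences were interactions, and fractions (per stage) and stages (per fraction) were compared with genotype in the model. CuffDiff and Xtail, which the study used, need alignments or counts. The fit was tested on simulated data. Alternatives were a pseudocount of 1, no filter, equal medians, 1 model over all libraries, the replicate block, no variance trend, leaving out each replicate, and a correction for transcript length (lowess span 0.3, longest Gencode M21 transcript, found for 99.4% of tested genes). Counts of the other lists and 15 named genes were put through them after seeing the data. Beside the 10 genes, the lists were HIF regulators, other HIF targets, the VEGF and adrenomedullin systems, endothelial, mural, astrocyte, neuronal, oligodendrocyte lineage, microglial, choroid plexus and erythroid markers, and reference genes. Members and lists were chosen with earlier results of these data known. From each list the 3 most abundant genes and the 3 with the smallest p in any SMA comparison are named; others are said to be named after their values were seen, or belong to a counted group. Promoter sequences are RefSeq's. A few genes that this rule would name are not reported here.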

Additional observations from a re-analysis of the deposited data

Results flagged for a closer look

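With all libraries, no hypoxia response gene passed the test of a genotype effect that differs between the stages, though Egln1, Hif1a and Ankrd37 in total RNA and Vegfa and Epas1 on polysomes passed in some alternatives. Among the genes named in the text from the lists set beside them, those below did at an unadjusted limma p under 0.05, where 4.55% and 5.6% of all tested genes did so in total RNA (higher and lower effect at P7) and 6.81% and 6.86% on polysomes. None had an adjusted p under 0.05, and the lowest was 0.0991, for Arnt on polysomes. Values are the log2 effect of SMA at P7 minus that at P5.

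In total RNA, the HIF pathway genes among them were Arnt2 (−0.22) and Tceb2 (0.65). Hif3a (−1.18) is given only as a description, since it reached the filter through the SMA libraries. The vessel and VEGF genes were Ly6a (1.27), Egfl7 (0.88), Aplnr (0.65), Abcc9 (−0.58), Rgs5 (−0.35), Nrp1 (−0.28) and Nrp2 (−0.28). The choroid plexus genes Ttr (1.28) and Folr1 (0.61), the microglial Aif1 (0.68), the neuronal Map2 (−0.27) and the reference genes B2m (0.39) and Hprt (0.27) also differed. Other genes of the lists passed as well, and these are not full lists. On polysomes they included Arnt (−1.18), Tceb2 (0.25), Abcc9 (−0.53), Nrp1 (−0.20), Ttr (0.90), Folr1 (0.72), Gjb6 (0.76), Olig2 (0.35) and Map2 (−0.28). Early-symptomatic libraries, on which each value rests, are those in which deviations followed transcript length.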

How the results depend on the processing

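Of 1440 log2 changes of the 9 genes under alternatives, 1367 kept their side of the threshold, 43 lost a call, 30 gained one and 0 called changes turned direction. The early-symptomatic polysomal call of Bnip3 was lost, leaving 0 hypoxia response genes, without a filter on low values, without a variance trend, with the length correction and with the block. Without a filter (34288 genes, 10 hypoxia response genes), more genes were tested, and 2907 and 3539 genes passed in the P5 transcriptome and translatome, 2295 and 2546 at P7, 1531 and 996 for early and late TE, 2799 and 3382 for the difference between stages, and 8666 between P5 fractions. It gave 1 of the 10 for late TE, which was Car9, close to 0 FPKM and left out of the main test. It also gave 1 for the total RNA difference between stages, as equal medians did (1). With 1 model over all libraries 3013, 3814 and 590 genes passed in the P5 transcriptome, translatome and TE. The length correction gave 1016 and 1377 for the differences between stages. Why these last settings moved the numbers was not tested.

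Leaving out 1 library at a time, the hypoxia response genes that passed numbered 0 to 2 and 0 to 1 in the P5 transcriptome and translatome, 0 to 2 and 0 to 1 at P7, 0 to 1 and 0 to 0 for TE, and 0 to 3 and 0 to 1 for the difference between stages. Between fractions they numbered 2 to 5 and 4 to 6, and between stages 4 to 7 and 6 to 7. Over all genes the ranges were 401 to 4319 and 791 to 3023 at P5, 1024 to 1708 and 1105 to 2060 at P7, 301 to 952 and 276 to 722 for TE, 796 to 4220 and 1200 to 3717 for the difference between stages, 2658 to 5079 and 5463 to 5794 between fractions, and 6551 to 7861 and 7445 to 8621 between stages. Where an arm kept 1 library, it was assumed to vary like the other.

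Across genes, libraries with the same replicate number shared little. Their deviations from group means correlated between −0.0391 and 0.109 for total with polysomal RNA. For control with SMA the range was −0.0902 to 0.0327, so the numbers were not taken to pair libraries. The oligodendrocyte lineage sums did follow the number between fractions, at both stages. In late controls they were 187, 390 and 396 in total RNA and 219, 471 and 431 on polysomes. In late SMA brains they were 453, 399 and 263, and 539, 470 and 293. Outside the block, the tests of TE and of fractions ignored any such pairing. The paper pooled all fractions of a profile for total RNA and only the polysomal ones for polysomal RNA, so these libraries may share brains. A gene that passed in both fractions of a stage may therefore not have passed independently. With the replicate block, 728 genes passed in the P5 transcriptome, 659 for late TE, and 0 of the 9 in the P5 translatome. Kdr then did not pass at P5, nor Flt1 in the P5 transcriptome, Apln in the P7 transcriptome, Ldha at P7, Arnt2 in either translatome, Ak4 in the P5 translatome, Aplnr or Angpt2 in the P7 translatome, or Pdk1 between the P7 fractions. Reads behind each FPKM are unknown, which limits what can be said of Adm, Car9 and Hif3a near or below 1 FPKM.

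Over the alternatives added after seeing the data, the lower endothelial markers numbered 3 to 11 in each fraction at P5 and 8 to 10 and 10 to 11 at P7, and the lower mural markers 1 to 5, 1 to 6, 5 to 8 and 8 to 9. Lower HIF targets ranged from 0 to 3 and 0 to 7 at P5 and from 2 to 6 and 3 to 5 at P7, and higher ones numbered at most 3.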
